A study of Mus musculus with 8 samples.

Results

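To describe blood vessels in the cortex of embryos labelled ErbB4 KO, the RNA of 10 genes that mark vascular cells was examined: Pecam1, Cdh5, Cldn5, Esam, Kdr, Flt1, Tek and Tie1 of endothelial cells, and Pdgfrb and Rgs5 of pericytes. They were chosen by name, as established markers of those cells, and not by their values, though earlier results of these data were known. All 10 were found among the 23284 gene symbols of the count tables, and all 10 passed the filter on low counts that left 14696 genes to test. None of the 10 passed the test for a difference between the genotypes, the summed level of the 8 endothelial genes was nearly equal in all 8 libraries, and the 2 pericyte genes lay on opposite sides of no change.

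Vessels enter the embryonic cortex from the surrounding meninges and grow inward. The endothelial cells line the vessel, respond to VEGF through their receptor tyrosine kinases, and seal their contacts with adherens and tight junctions as the blood-brain barrier forms. Pericytes wrap the outside of the capillary and are recruited by PDGF-B that the endothelium secretes.

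Polyadenylated RNA was sequenced from the dorsal cortex of mouse embryos at E15.5, after the meninges and the ganglionic eminences had been taken off, in 4 WT and 4 ErbB4 KO libraries. The study names C57BL/6 as the background of the lines it made by gene editing, and names none for these 2 genotypes. ErbB4 KO is ErbB4-/- in all tissues but the heart, where, as the study describes its ErbB4-/- mice, ErbB4 is supplied under the cardiac alpha-MHC promoter because embryos without it die early. The 2 genotypes were kept as separate homozygous lines, so that line and genotype cannot be told apart, and the labels give neither litters nor the sex of the embryos. The libraries held 28205703 to 48871480 counted reads, and each of the 10 genes had 209 to 2132 reads in each library.

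Some features of the libraries touch every comparison of them. Levels are given in CPM, the reads of a gene per 1000000 reads of its library after TMM scaling. Erbb4 itself was at 8.99, 19.9, 25.3 and 19.2 CPM in WT replicates 1 to 4 and at 20.9, 24.6, 20.7 and 23.5 CPM in ErbB4 KO replicates 1 to 4. It was not lower in the libraries labelled ErbB4 KO, and since a count over the whole gene does not show which exons a transcript holds, it is no check of those labels, which are used here as given. Xist, transcribed from the inactive X chromosome of females, was at 983 to 1690 CPM in WT replicates 1 to 3 and at 2.70 to 3.82 CPM in the other 5 libraries. All 4 ErbB4 KO libraries and only 1 WT library thus lacked it, so sex and genotype are partly confounded in every comparison here. WT replicate 1 stood apart on the first principal component of all genes. Its levels relative to the other libraries fell with the exon length of the gene, with a Spearman's rho of -0.525 across 14289 genes against 0.033 to 0.201 in the other 7 libraries (genes are not independent replicates). ErbB4 KO replicate 3 held choroid plexus RNA, with Ttr at 572 CPM against 0.571 to 8.76 CPM in the other libraries. The p-values below measure the spread between these 8 libraries, and in bulk tissue fewer cells of a type and less RNA per cell cannot be told apart.

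The promoters of these genes are shown first. Endothelial genes are known for binding sites of ETS transcription factors, whose core is GGAA or GGAT. The bases just before the RefSeq transcription start were searched only for GGAA, on either strand (GGAA or TTCC as printed). In the RefSeq promoter table, built on GRCm38.p6, 6 of the 10 genes had an entry. Each of these 250-base windows was found once, by exact match, on its chromosome of the mm9 genome. Tie1 held 7 matches, Kdr and Flt1 4 each, Rgs5 3, Tek 2 and Cldn5 none. Of the Tie1 window, 212 bases lie inside the gene as GENCODE places it, and of the Kdr window 3. Over all 27025 promoters of that length the median was 3 matches, 93.4% held at least 1, 33.4% held 4 or more, 3.77% held 7 or more and 6.63% held none. The following 3 windows, with 4, 2 and no matches, are printed as examples from a VEGF receptor, an angiopoietin receptor and a tight junction gene, and were chosen after the counts were seen. They run 5′ to 3′ in the direction of the gene, with each match in capitals, and lie at chr5:148537588-148537837 on the minus strand (Flt1), chr4:94405730-94405979 on the plus strand (Tek) and chr16:18776690-18776939 on the plus strand (Cldn5), all in mm9.
Flt1: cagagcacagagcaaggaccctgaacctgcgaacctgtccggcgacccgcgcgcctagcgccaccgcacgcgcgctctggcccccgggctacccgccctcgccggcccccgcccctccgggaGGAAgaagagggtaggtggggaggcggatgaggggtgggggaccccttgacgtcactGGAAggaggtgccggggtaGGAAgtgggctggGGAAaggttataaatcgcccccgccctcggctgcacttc
Tek: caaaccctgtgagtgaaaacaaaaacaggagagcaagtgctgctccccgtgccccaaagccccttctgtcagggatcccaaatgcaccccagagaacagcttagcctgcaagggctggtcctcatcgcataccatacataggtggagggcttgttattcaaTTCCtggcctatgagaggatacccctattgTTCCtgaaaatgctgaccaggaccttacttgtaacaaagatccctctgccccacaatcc
Cldn5: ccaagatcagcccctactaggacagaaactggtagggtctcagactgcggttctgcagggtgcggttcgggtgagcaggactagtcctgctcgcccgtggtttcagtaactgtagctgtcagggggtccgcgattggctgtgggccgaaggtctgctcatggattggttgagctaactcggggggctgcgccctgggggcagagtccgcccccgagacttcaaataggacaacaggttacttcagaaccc
A match is only these letters, not a bound site. A window without a match can still hold the other form of the core, GGAT, as that of Cldn5 does.

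In CPM per kb of exon, the scale on which genes can be compared, the 10 genes spanned a wide range. Cldn5 was the most abundant, with a mean of 27.7 CPM per kb over the 8 libraries, and its lowest library (23.8) lay above every library of every other member. Rgs5 followed at 7.11, then Cdh5 at 5.34, Pecam1 at 5.28, Esam at 4.65, Tie1 at 3.95, Pdgfrb at 3.66 and Kdr at 3.65 CPM per kb. From Rgs5 down to Kdr, each gene's range over the libraries overlapped that of the next, so neighbours in that order were not separated. Tek, at 2.07 CPM per kb (1.58 to 2.38), and Flt1, at 0.86 CPM per kb (0.684 to 0.993), lay below all the others and did not overlap each other. That separation rests on the exon lengths, 4712 nt for Tek and 11583 nt for Flt1. In CPM the means were 9.76 in WT and 9.79 in ErbB4 KO for Tek, and 9.4 and 10.5 for Flt1. By CPM, the members stood between percentile 30.7 (Tek) and percentile 58.0 (Cldn5) of the genes tested.

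**Figure D1:**
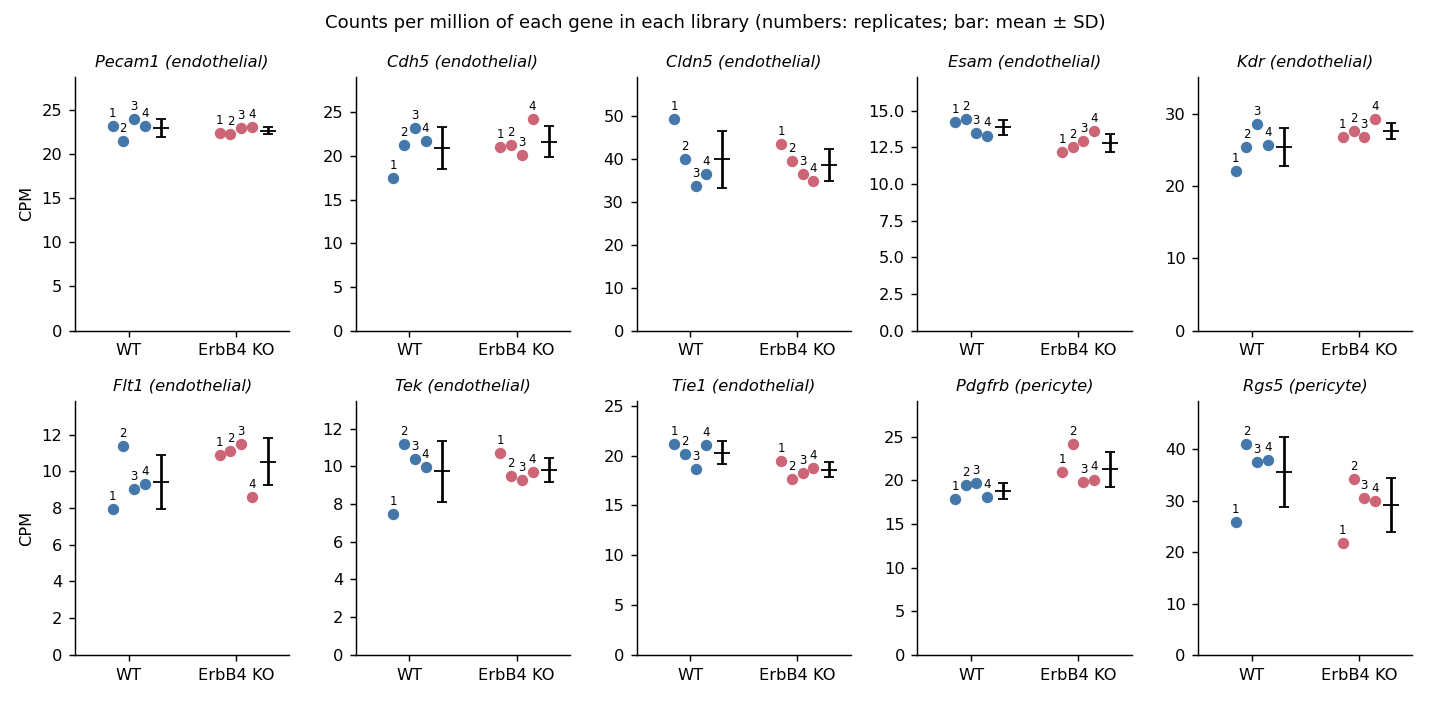
Level of each of the 10 genes in CPM (vertical axes, from 0) in each library, WT in blue and ErbB4 KO in red, with the replicate number above each point and the mean ± SD of the 4 libraries beside them. The genotypes overlap for every gene but Pdgfrb, and WT replicate 1 is the lowest of all libraries for Cdh5, Kdr, Flt1, Tek and Pdgfrb and the highest for Cldn5 and Tie1.

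The adhesion proteins of the endothelial contact were compared first. Pecam1, which encodes PECAM-1 (CD31), a homophilic adhesion protein of the cell border, lies on chr11:106515531-106611942 (minus strand; mm9, as are all positions here, from the GENCODE annotation of that build). It was at 23.1, 21.5, 23.9 and 23.1 CPM in WT replicates 1 to 4 and at 22.4, 22.2, 22.9 and 23.0 CPM in ErbB4 KO replicates 1 to 4. The libraries were close together, and those of ErbB4 KO fell inside the WT range. The log2 fold change of ErbB4 KO over WT was -0.018 (SE 0.066; 95% interval -0.16 to 0.13), with an adjusted p of 0.96 in edgeR. Cdh5 encodes VE-cadherin, the adherens junction cadherin of endothelium, and lies on chr8:106625525-106668402 (plus strand). It was at 17.5, 21.3, 23.2 and 21.7 CPM in WT and at 21.0, 21.3, 20.1 and 24.2 CPM in ErbB4 KO. WT replicate 1 was the lowest library and the others mixed, with a log2 fold change of 0.043 (SE 0.097; -0.17 to 0.26; edgeR adjusted p = 0.928).

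Cldn5 encodes claudin-5, the main tight junction claudin of brain endothelium, and lies on chr16:18776940-18778353 (plus strand) with 1414 nt of exon, the shortest of the members. It was at 49.1, 39.8, 33.7 and 36.5 CPM in WT and at 43.3, 39.4, 36.5 and 34.8 CPM in ErbB4 KO. WT replicate 1 was here the highest library, and the remaining libraries of both genotypes interleaved. The log2 fold change was -0.045 (SE 0.11; -0.29 to 0.20; edgeR adjusted p = 0.938), and it was 0.073 without WT replicate 1, so its sign rested on that library. Esam, for an immunoglobulin-type adhesion molecule of endothelial tight junctions, lies on chr9:37335663-37345904 (plus strand). It was at 14.2, 14.4, 13.5 and 13.3 CPM in WT and at 12.2, 12.5, 12.9 and 13.6 CPM in ErbB4 KO. ErbB4 KO replicates 1 to 3 lay below all 4 WT libraries and ErbB4 KO replicate 4 lay among them. The log2 fold change was -0.11 (SE 0.077; -0.28 to 0.055), the edgeR adjusted p was 0.81, and an exact two-sided permutation test over the 70 assignments of the libraries, whose smallest possible p is 0.0286, gave p = 0.0857. For Esam the log2 fold change was -0.054 with Xist as a covariate and -0.056 in the 5 libraries without Xist.

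The VEGF receptors were examined next. Kdr encodes VEGFR2, the main signalling receptor for VEGF-A, and lies on chr5:76328852-76374483 (minus strand). It was at 22.1, 25.5, 28.6 and 25.8 CPM in WT and at 26.9, 27.7, 26.8 and 29.3 CPM in ErbB4 KO. WT replicate 3 lay among the ErbB4 KO libraries and the other 3 WT libraries lay below them, with a log2 fold change of 0.11 (SE 0.083; -0.067 to 0.30; edgeR adjusted p = 0.81). Flt1 encodes VEGFR1, which binds VEGF-A tightly and limits how much reaches VEGFR2. It lies on chr5:148373180-148537587 (minus strand), 72.0 Mb from Kdr, with 11583 nt of exon, the longest of the members. Flt1 was at 7.92, 11.4, 9.04 and 9.29 CPM in WT and at 10.9, 11.1, 11.5 and 8.61 CPM in ErbB4 KO. The ranges of the genotypes overlapped over most of their length, with a log2 fold change of 0.16 (SE 0.13; -0.12 to 0.44; edgeR adjusted p = 0.81). Single libraries moved both values, as Kdr had a log2 fold change of 0.052 without WT replicate 1 and 0.18 without WT replicate 3, and Flt1 had 0.094 without WT replicate 1 and 0.27 without WT replicate 2. The ratio of Kdr to Flt1 CPM ran from 2.24 to 3.16 in WT and from 2.33 to 3.4 in ErbB4 KO, so the balance of the receptors overlapped as well.

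Tek encodes TIE2, the receptor for the angiopoietins, which steadies the contact of endothelium with pericytes, and lies on chr4:94405980-94541667 (plus strand). It was at 7.45, 11.2, 10.4 and 9.94 CPM in WT and at 10.7, 9.48, 9.30 and 9.72 CPM in ErbB4 KO. WT replicate 1 was the lowest library, WT replicate 2 the highest, and the log2 fold change was 0.0044 (SE 0.12; -0.26 to 0.27; edgeR adjusted p = 0.995). Without WT replicate 1 it was -0.10. Tie1 encodes the related receptor TIE1, which modulates TIE2, and lies 23.6 Mb away on chr4:118143796-118162666 (minus strand). It was at 21.2, 20.2, 18.7 and 21.1 CPM in WT and at 19.5, 17.7, 18.3 and 18.8 CPM in ErbB4 KO. WT replicate 3 lay within the ErbB4 KO range and the other WT libraries above it. The log2 fold change was -0.13 (SE 0.074; -0.29 to 0.036), with an edgeR adjusted p of 0.81 and an exact permutation p of 0.0857. With Xist as a covariate the log2 fold change of Tie1 was -0.20.

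Of the pericyte genes, Pdgfrb encodes the receptor for PDGF-B that brings pericytes to the vessel and lies on chr18:61204804-61244715 (plus strand). It was at 17.9, 19.5, 19.7 and 18.1 CPM in WT and at 21.0, 24.2, 19.8 and 20.1 CPM in ErbB4 KO. Every ErbB4 KO library lay above every WT library, which was so for 1.86% of all genes tested, and the gap between WT replicate 3 and ErbB4 KO replicate 3 was narrow. The log2 fold change was 0.18 (SE 0.084; -0.0053 to 0.36), a fold of 1.13 (0.996 to 1.29). The edgeR p was 0.0559 before and 0.81 after adjustment, and the exact permutation p was 0.0286, the smallest that the design allows. Leaving out ErbB4 KO replicate 2, the highest library, brought the log2 fold change to 0.11.

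Rgs5 encodes a regulator of G protein signalling that is used as a marker of brain pericytes and lies on chr1:171585632-171625944 (plus strand), 102 Mb from Erbb4 on the same chromosome. It was at 25.8, 41.1, 37.5 and 38.0 CPM in WT and at 21.8, 34.2, 30.6 and 29.9 CPM in ErbB4 KO. WT replicates 2 to 4 lay above all the ErbB4 KO libraries, but WT replicate 1 lay between ErbB4 KO replicate 1 and the other ErbB4 KO libraries. The log2 fold change of -0.29 (SE 0.15; -0.63 to 0.041), a fold of 0.815 (0.646 to 1.03), was the furthest from 0 among the 10 genes. Its edgeR p was 0.0799 before and 0.81 after adjustment, and the exact permutation p was 0.229. Without WT replicate 1 the log2 fold change was -0.42, and it was -0.18 without ErbB4 KO replicate 1. In the 5 libraries without Xist, WT replicate 4 against the 4 ErbB4 KO libraries, in a fit that assumes the lone WT library varies as the others do, the log2 fold changes of Pdgfrb and Rgs5 were 0.23 and -0.39. The ratio of Rgs5 to Pdgfrb was 1.45, 2.1, 1.91 and 2.1 in WT and 1.04, 1.41, 1.54 and 1.49 in ErbB4 KO. Only WT replicate 1 overlapped the ErbB4 KO libraries on this ratio, which was formed after both genes had been seen and carries no test.

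**Figure D2:**
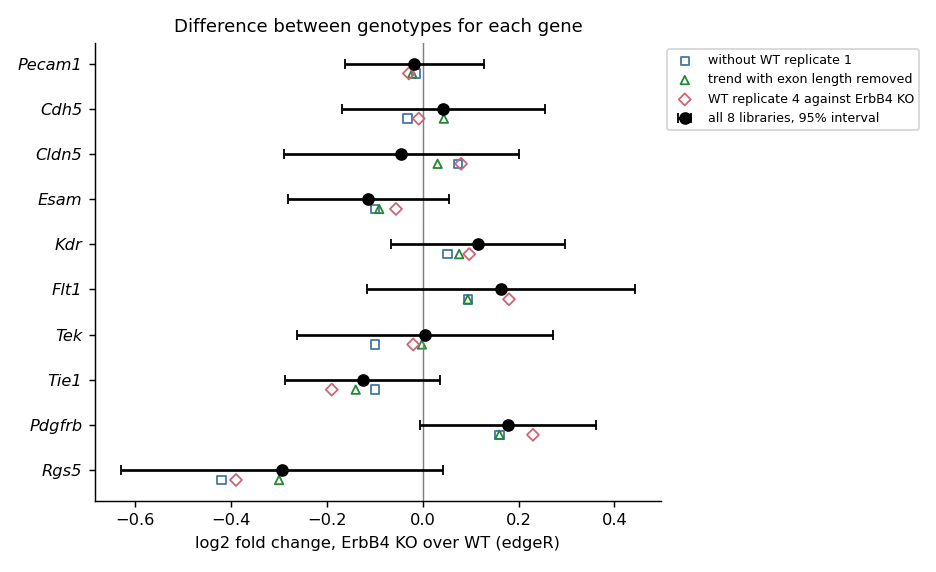
Log2 fold change of ErbB4 KO over WT for each gene (horizontal axis, edgeR), with the 95% interval as a bar, and open symbols for the value without WT replicate 1, with the trend with exon length removed, and in the 5 libraries without Xist. All 10 intervals include 0, and Pdgfrb (0.18; -0.0053 to 0.36) comes nearest to leaving it out.

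Across the 10 genes, 5 log2 fold changes were above 0 and 5 below, with a median of -0.0069 beside -0.0022 over all 14696 genes. With an adjusted p under 0.05 in edgeR, 0 of the 10 differed, against 4 of all genes (0.0272%), and 0 of the 10 had an unadjusted p under 0.05, against 5.53% of all genes. DESeq2 also called 0 of the 10 and gave 1, Pdgfrb, an unadjusted p under 0.05 (0.0488, or 0.866 after adjustment). Leaving out 1 library changed that count in edgeR. The unadjusted p of Rgs5 was 0.00497 without WT replicate 1 and 0.0404 without ErbB4 KO replicate 2, and that of Pdgfrb was 0.0465 without ErbB4 KO replicate 3. After adjustment these were 0.724, 0.984 and 0.941. Every ErbB4 KO library lay above every WT library for 1 of the 10 (1.86% of all genes), and below for 0 of the 10 (1.48% of all genes). The intervals state what could have been missed: a log2 change beyond -0.16 to 0.13 was outside the 95% interval for Pecam1, whereas the interval of Rgs5 reached -0.63 and that of Flt1 reached 0.44.

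The spread between libraries of 1 genotype was set beside counting error. For Pecam1 and Esam, the coefficient of variation of CPM among the WT libraries was 4.4% and 3.82%, against 3.66% and 4.69% from counting. For Cldn5, Rgs5, Tek and Flt1 it was 16.8%, 18.8%, 16.6% and 15.3%, against 2.78%, 3.0%, 5.7% and 5.76%. The values of the first pair of genes lay close to counting error and those of the other 4 well above it, as a description with no test. Without WT replicate 1 the coefficient of variation of Rgs5 in WT was 4.94%, that of Tek 6.01% and that of Cldn5 8.35%, whereas that of Flt1 stayed at 12.8%. In ErbB4 KO, Rgs5 had the widest spread of the members (17.9%) and Pecam1 the narrowest (1.65%).

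The deviation of each gene in WT replicate 1 was set beside that of genes of like length. In that library, genes in the shortest of 10 classes of exon length stood a median of 0.325 on the log2 scale above the mean of the other 7 libraries and genes in the longest class stood -0.313 from it. Cldn5, in the shortest class, deviated by 0.38 and Flt1, in the longest, by -0.36, near the medians of their classes (0.32 and -0.31). Kdr (-0.30), Pdgfrb (-0.18), Esam (0.10) and Pecam1 (0.026) were also between percentiles 31.7 and 56.8 of genes of like length. Tek (-0.43), Cdh5 (-0.31) and Rgs5 (-0.34) were lower than most such genes, at percentiles 10.2, 12.8 and 15, and Tie1 (0.14) was higher, at percentile 81.3. With the trend with length removed from every library, the log2 fold changes were 0.031 for Cldn5, 0.16 for Pdgfrb and -0.30 for Rgs5. That of Flt1 was 0.094 in place of 0.16, and that of Kdr was 0.076 in place of 0.11. The part of length in the spread of the members was not tested beyond these values.

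**Figure D3:**
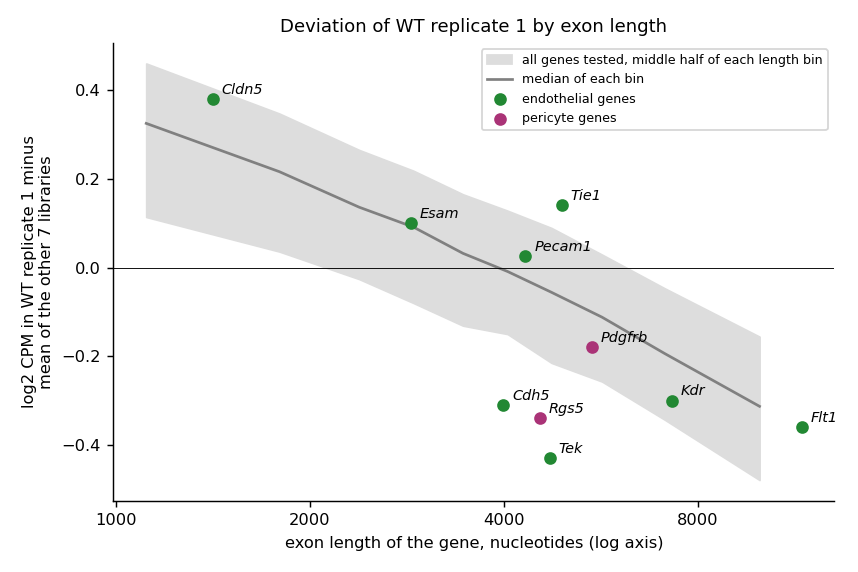
Log2 CPM in WT replicate 1 minus the mean of the other 7 libraries (vertical axis) against exon length in nucleotides (horizontal log axis), with the median and the middle 50% of all genes in 10 length classes in grey. Cldn5, Esam, Kdr and Flt1 lie near the grey line, Tek, Cdh5 and Rgs5 lie below the grey band and Tie1 above it.

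Summed over the 8 endothelial genes, the level was 163, 165, 161 and 161 CPM in WT replicates 1 to 4 and 167, 161, 158 and 162 CPM in ErbB4 KO replicates 1 to 4. The means were 162 ± 2.05 CPM in WT and 162 ± 3.59 CPM in ErbB4 KO (SD, n = 4 each), and they differed by -0.332 CPM or -0.204%. In WT replicate 1 a high Cldn5 met a low Cdh5, Kdr, Flt1 and Tek. The 2 pericyte genes summed to 43.7, 60.6, 57.2 and 56.2 CPM in WT and to 42.8, 58.4, 50.4 and 50 CPM in ErbB4 KO. These sums overlapped, at 54.4 ± 7.39 and 50.4 ± 6.36 CPM, and the lowest library of each genotype was also the lowest for Rgs5. Pericyte over endothelial CPM was 0.269, 0.367, 0.355 and 0.349 in WT and 0.257, 0.362, 0.318 and 0.309 in ErbB4 KO, again overlapping. No test was made on these sums.

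**Figure D4:**
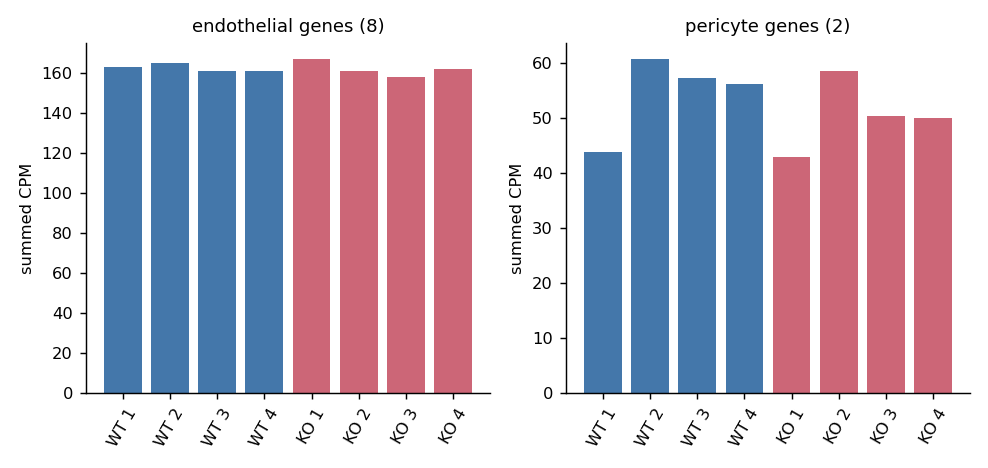
Summed CPM (vertical axes, from 0) of the 8 endothelial genes and of the 2 pericyte genes in each library, WT in blue and ErbB4 KO in red. The endothelial sum stays between 158 and 167 CPM, and the pericyte sum is lowest in WT replicate 1 (43.7 CPM) and ErbB4 KO replicate 1 (42.8 CPM).

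To see whether the members rose and fell together between embryos, their log2 CPM was centred on the mean of each genotype and compared in pairs over the 8 libraries. Of the 45 pairs, 20 had a Pearson's r above 0 and the median was -0.0614. No pattern shared by all 10 genes was seen, but these pairs cannot decide whether the genes vary together. The spread of Pecam1 and Esam in WT lay close to counting error, so their pairs could hardly show it. WT replicate 1, where short and long genes deviated in opposite directions, also enters the values over the 8 libraries. Over the 8 libraries Cdh5 and Kdr were the most alike (r = 0.953, and 0.869 without WT replicate 1). Kdr and Cldn5 were the most opposed over the 8 (r = -0.90, and -0.728 without that library). Without WT replicate 1, Cdh5 and Flt1 were the most opposed (r = -0.894, against -0.0189 over the 8 libraries). For the pericyte pair, Pdgfrb and Rgs5, r was 0.462, and 0.355 without that library. Without WT replicate 1, 21 of the 45 pairs were above 0, with a median of -0.0397. All of these values share the same 8 libraries and their depth, and are a description.

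The genes whose pattern between libraries was most like the mean of the 8 endothelial members, among 13270 genes with a mean of at least 1 CPM, were Adarb2 (r = 0.985), Dnahc5 (0.985), Parm1 (0.983), Slc5a7 (0.978), Plxnc1 (0.978), Has3 (0.976), 1810041L15Rik (0.975), Ntn1 (0.973), Slc1a2 (0.97) and Palm2 (0.97). None of them is in the vascular lists used here. Adarb2 was at 8.70 CPM in WT replicate 1 and at 13.6 to 22.5 CPM in the others, and Ntn1 was at 24.5 CPM in WT replicate 1 and at 32.5 to 56.4 CPM in the others, so the likeness included the low value of that library. Without it, the r of the 10 genes was 0.904 to 0.973 and their ranks were 11 to 107, so that none of them was among the first 10, and the order of the list rested on that library. Of 32 other endothelial identity genes, 18 had an r above 0 with the members, with a median of 0.032 beside 0.0176 for all genes. Without WT replicate 1 it was 22 of 32, with a median of 0.269 beside -0.0374. The pattern of the pericyte members was most like Fmn2 (r = 0.991), Unkl (0.986), Mndal (0.958), Nsun7 (0.952) and Ifi203 (0.951). Of 16 other mural cell genes, 9 had an r above 0 with them, with a median of 0.176 beside -0.008.

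Of the 12 genes whose pattern was most like that of Rgs5 alone, 6 lie on chromosome 1, as Rgs5 does, and 6 lie elsewhere: Gm3985 (r = 0.961), Odz3 (0.945) and Unc5d (0.938) on chromosome 8, Ift88 (0.954) on chromosome 14, D330012F22Rik (0.942) on chromosome 7 and Chm (0.941) on the X chromosome. Rgs4, its neighbour 45.7 kb away, encodes another regulator of G protein signalling that neurons also express. It was at 42.6, 65.6, 57.3 and 57.9 CPM in WT and at 38.2, 57.7, 60.4 and 47.7 CPM in ErbB4 KO, lowest in the same 2 libraries as Rgs5 (r = 0.938). Mndal, an interferon-inducible p200 family gene 4.16 Mb from Rgs5, was at 0.499, 2.5, 1.95 and 2.65 CPM in WT and at 0.325, 3.56, 1.33 and 1.52 CPM in ErbB4 KO (r = 0.971). Its family member Aim2, 3.66 Mb from Rgs5, was at 6.06, 10.9, 10.6 and 9.34 CPM in WT and at 2.84, 9.68, 6.4 and 6.86 CPM in ErbB4 KO (r = 0.93). WT replicate 1 and ErbB4 KO replicate 1 were the lowest libraries of each of these genes. Within 10 Mb of Rgs5, 7 of 127 genes had an r over 0.9 with it (Mndal, Fmn2, Ifi203, Rgs4, Zbtb37, Aim2 and Kif26b), against 64 of all 13279 genes. The median r near Rgs5 was 0.143, beside -0.00715 for all genes, so most of its neighbours did not share the pattern closely. This set was looked at after its values were seen, and has no test. Reads of the p200 genes may be split among near-identical copies, which makes their levels uncertain.

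Other genes with vascular roles were followed in 5 lists. Outside the endothelial identity list, each list held genes more abundant than any member. Mean WT levels were 134 CPM for Slc7a5 (barrier list), 278 for Wnt7b (Wnt list), 55.9 for Rgs4 (mural list) and 432 for Efnb2 (ligand list). That of Cldn5, the most abundant member, was 39.8 CPM. Which cells of the bulk tissue made the RNA of each list was not tested. The medians and sums below are therefore not a measure of vessels alone. Endothelial identity genes (transcription factors, surface proteins and junction genes besides the members) were tested for 34 of 35, of which 18 were higher and 16 lower in ErbB4 KO, with a median log2 fold change of 0.008 (-0.041 with Xist as a covariate to 0.039 without WT replicate 2 over the alternatives). None of the 34 passed an adjusted p under 0.05 in edgeR or in DESeq2, and 2 had an unadjusted p under 0.05 in edgeR, both lower. Plvap, which forms the diaphragms of leaky vessels and is lost as the barrier matures, was at 3.99, 4.14, 4.69 and 4.67 CPM in WT and at 3.02, 2.96, 3.59 and 3.75 CPM in ErbB4 KO, without overlap (log2 fold change -0.40, SE 0.13; edgeR adjusted p = 0.81). Tal1, a transcription factor of endothelial and blood cell precursors, was at 2.06 to 2.57 CPM in WT and at 1.61 to 1.91 CPM in ErbB4 KO (log2 fold change -0.37, SE 0.15; edgeR adjusted p = 0.81). At the other end of the list, among genes with at least 1 CPM, Erg and She had log2 fold changes of 0.23 and 0.17 with overlapping libraries. That of Erg was 0.14 without WT replicate 1, and that of She was 0.087 without WT replicate 3 and 0.09 without ErbB4 KO replicate 1. The summed level of the list was 285 to 305 CPM in WT and 294 to 307 CPM in ErbB4 KO.

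Blood-brain barrier and transport genes were tested for 20 of 21, with 12 higher and 8 lower, a median log2 fold change of 0.031 (0.028 without WT replicate 2 to 0.07 without WT replicate 1) and 0 past the adjusted threshold in edgeR or DESeq2. In edgeR, 3 had an unadjusted p under 0.05 with a higher level and 1 with a lower level. Slc22a8, an organic anion transporter, was at 2.82, 3.47, 2.89 and 2.88 CPM in WT and at 5.52, 5.17, 4.66 and 3.46 CPM in ErbB4 KO. WT replicate 2 and ErbB4 KO replicate 4 met, and the others were apart (log2 fold change 0.65, SE 0.16; edgeR adjusted p = 0.736). Slco1c1, a thyroxine transporter of brain capillaries that choroid plexus also makes, was at 13.7 to 17.2 CPM in WT and at 21.1, 22.6, 21.2 and 14.7 CPM in ErbB4 KO (log2 fold change 0.40, SE 0.13; edgeR adjusted p = 0.81). Foxq1, an endothelial transcription factor, had a log2 fold change of 0.25 (edgeR adjusted p = 0.81). Slc40a1, the iron exporter ferroportin, was lower without overlap. It was at 15.8 ± 0.884 CPM in WT and 13.5 ± 1.08 CPM in ErbB4 KO (SD, n = 4 each). The gap was very narrow, with WT replicate 3 and ErbB4 KO replicate 4 both at 15.1 CPM in the digits given. The junction gene Jam2 had a log2 fold change of -0.29 (-0.16 without WT replicate 3 and -0.42 without WT replicate 4). The sign of Jam2 followed the libraries with Xist, at 31.9 to 42.9 CPM in WT replicates 1 to 3, 24.6 CPM in WT replicate 4 and 26.0 to 28.5 CPM in ErbB4 KO, and its log2 fold change was 0.19 with Xist as a covariate and 0.17 in the 5 libraries without Xist. The summed level was 750 to 771 CPM in WT and 750 to 778 CPM in ErbB4 KO.

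Mural cell genes, those of pericytes and smooth muscle besides Pdgfrb and Rgs5, were tested for 21 of 22, with 12 higher and 9 lower and a median log2 fold change of 0.096. That median was 0.014 without WT replicate 3 and 0.029 without ErbB4 KO replicate 3. None had an adjusted or an unadjusted p under 0.05 in edgeR, and DESeq2 called 0 by adjusted p. Anpep and Tbx18 had the highest log2 fold changes among those with at least 1 CPM (0.22 and 0.27), and Mcam and Tagln the lowest (-0.21 and -0.17), each with overlapping libraries. Single libraries moved these values: the log2 fold change was 0.44 for Anpep without WT replicate 2, 0.023 for Tbx18 without WT replicate 1, and -0.042 for Tagln without WT replicate 4 and -0.35 without WT replicate 3. Tbx18 also turned, to -0.18, with Xist as a covariate. Tagln was at -0.52 with that covariate and at -0.49 in the 5 libraries without Xist. The genes of Wnt and norrin signalling in brain angiogenesis numbered 13, all tested, with 4 higher, 9 lower and a median of -0.051, which ranged from -0.14 in the 5 libraries without Xist to -0.013 without WT replicate 2 over the alternatives. Among them Fzd4 and Lrp6, receptors for norrin and Wnt, had log2 fold changes of 0.036 and 0.07, the nuclear effector Lef1 -0.15 (-0.086 without ErbB4 KO replicate 2, -0.098 without WT replicate 3 and -0.25 with Xist as a covariate), and Apcdd1, a secreted inhibitor of Wnt that neural progenitors also make, -0.16. Apcdd1 was at 132 ± 7.54 CPM in WT and 118 ± 8.68 CPM in ErbB4 KO (SD, n = 4 each), with an edgeR adjusted p of 0.81, and its log2 fold change was -0.26 with Xist as a covariate. In this list 1 gene, Apcdd1, had an unadjusted p under 0.05 and 0 an adjusted one in edgeR or DESeq2.

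Vascular ligands, co-receptors and receptors of several pathways, only some of which act on the members' products, were tested for 27 of 28. Of these, 13 were higher and 14 lower, with a median of -0.015 (-0.042 without WT replicate 3 to 0.0077 without WT replicate 2). In edgeR or DESeq2, 0 passed the adjusted threshold, and 4 had an unadjusted p under 0.05 in edgeR. Nrp1, the co-receptor of VEGFR2 that axons also carry, was at 138, 162, 154 and 160 CPM in WT and at 175, 199, 194 and 163 CPM in ErbB4 KO, with no overlap and a narrow gap between WT replicate 2 and ErbB4 KO replicate 4 (log2 fold change 0.25, SE 0.075; edgeR adjusted p = 0.81). Vegfc, a ligand of VEGFR3, was lower without overlap, at 5.08 ± 0.607 and 3.93 ± 0.555 CPM (SD, n = 4 each; log2 fold change -0.37). The gap was narrow, 4.53 CPM in WT replicate 4 against 4.51 CPM in ErbB4 KO replicate 1, and the log2 fold change was -0.20 with Xist as a covariate and in the 5 libraries without Xist. Notch4, an endothelial Notch receptor, was lower without overlap as well, at 12.7 ± 0.618 and 11.2 ± 0.30 CPM (SD, n = 4 each; log2 fold change -0.19), and Tgfbr1 had a log2 fold change of 0.15. Figf, which encodes VEGF-D, and Pdgfa had log2 fold changes of -0.31 and 0.22 with overlapping libraries. These were -0.093 for Figf without ErbB4 KO replicate 4 (-0.59 without ErbB4 KO replicate 3) and 0.11 for Pdgfa without WT replicate 3.

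**Figure D5:**
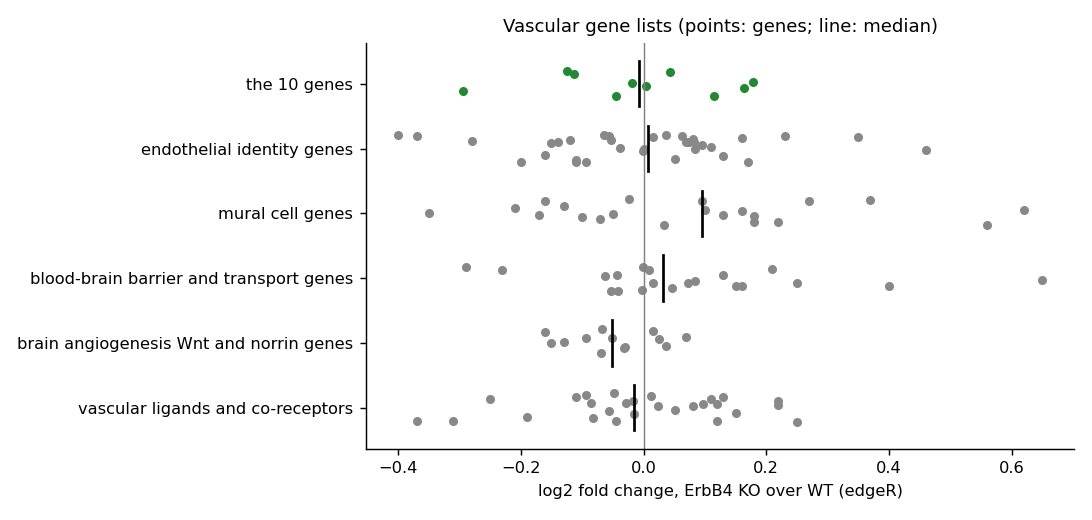
Log2 fold change of ErbB4 KO over WT (horizontal axis, edgeR) for the 10 genes in green and for the genes of the 5 vascular lists in grey, with the median of each as a black line. The medians lie between -0.051 and 0.096, and none of the points passed an adjusted p under 0.05.

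Markers of other cells that the dissected tissue could hold were measured beside these results. Meningeal fibroblast markers summed to 16.8 to 20.8 CPM in WT and to 17.2 to 32.9 CPM in ErbB4 KO. The highest was ErbB4 KO replicate 3, the library with Ttr, and 4 of the 12 markers (Lum, Foxc2, Aldh1a2 and Slc6a13) were too low to test. In the 8 tested, 7 were higher and 1 lower, with a median log2 fold change of 0.06 (0.20 without WT replicate 1 and 0.021 without WT replicate 2), Col3a1 at 0.012, Dcn at -0.037, Ptgds at 0.72 and Ogn at 1.85. Without ErbB4 KO replicate 3, where Ogn was at 7.58 CPM against 0.889 to 1.66 CPM in the other ErbB4 KO libraries, the log2 fold changes were 0.77 for Ogn and 0.48 for Ptgds. Choroid plexus markers summed to 3.99 to 15.9 CPM in WT and to 4.83, 9.56 and 15.2 CPM in 3 of the ErbB4 KO libraries but to 630 CPM in ErbB4 KO replicate 3. The 6 tested had log2 fold changes above 0 (Ttr 4.82, Folr1 2.76, Clic6 2.27, Otx2 0.70) with a median of 2.3, and the median was -0.15 without that library. In ErbB4 KO replicate 3 the 8 endothelial genes summed to 158 CPM, the lowest of the 8 libraries, and the pericyte genes to 50.4 CPM, within the range of the others.

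Red blood cell markers, summed to 33.1 to 57.6 CPM in WT and to 23.1 to 36.3 CPM in ErbB4 KO. The embryonic globin Hbb-y was at 34.6, 31.6, 26.3 and 13.9 CPM in WT and at 3.69, 4.05, 6.74 and 18.3 CPM in ErbB4 KO, with a log2 fold change of -1.72 (-0.77 with Xist as a covariate), and Hba-x had a log2 fold change of -1.23. Neither passed the adjusted threshold in edgeR, and WT replicate 4 and ErbB4 KO replicate 4 overlapped. Alas2 and Slc4a1, other genes of red cell precursors, had log2 fold changes of 0.21 and 0.11. Alas2 was at 0.11 without ErbB4 KO replicate 2, and Slc4a1 at 0.57 with Xist as a covariate. The median of the 5 red cell genes tested was -0.15, and it was 0.016 without WT replicate 1 and 0.16 in the 5 libraries without Xist. The adult globin genes Hba-a1, Hba-a2 and Hbb-b2 are listed at 0 reads in every library and Hbb-b1 at 1 read in all, and near-identical globin copies can lose their reads in counting. Microglia and leukocyte markers summed to 62.5 to 75.4 CPM in WT and to 62.9 to 74.9 CPM in ErbB4 KO, with 8 of 11 higher, a median of 0.04 (-0.043 without WT replicate 2 to 0.12 without WT replicate 1) and log2 fold changes of -0.37 for Aif1, -0.10 for C1qc, 0.12 for Csf1r and 0.20 for P2ry12. Single libraries moved these, as Aif1 was -0.15 without WT replicate 1, -0.24 without ErbB4 KO replicate 1 and -0.60 without ErbB4 KO replicate 2, Csf1r was 0.075 without WT replicate 3, and C1qc was -0.042 without WT replicate 1, -0.17 without ErbB4 KO replicate 2 and -0.00052 without ErbB4 KO replicate 4. Of the neural lists, the 8 cortical neuron markers had a median of -0.0042 (Dcx 0.14, Neurod6 -0.029, Tbr1 -0.11), and the 8 progenitor markers were all lower in sign, with a median of -0.21 (Pax6 -0.27, Hes1 -0.24, Sox2 -0.12, Mki67 -0.049). Without WT replicate 1 these medians were 0.035 and -0.15, and the log2 fold changes were 0.042 for Dcx, -0.058 for Tbr1 and -0.068 for Sox2. That of Sox2 was -0.034 with Xist as a covariate. In the meningeal, choroid plexus, red cell, microglial and progenitor lists, 0 genes passed an adjusted p under 0.05 in edgeR or DESeq2, and the unadjusted counts in edgeR were 2 meningeal, 2 red cell, 0 microglial, 4 choroid plexus and 4 progenitor genes. Their part in the levels of the 10 genes was not tested.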

How the data were processed

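The authors mapped single-end reads of libraries that do not mark strand to the mm9 genome (HISAT) and obtained 1 count per gene (HTSeq). Versions, gene annotation and counting mode are not given in the sources used here. The deposited values are raw counts per gene symbol, 1 table a library, with 28205703 to 48871480 counts each. A table of the authors' own DESeq2 comparison (mean, log2 fold change with its standard error, fold change, test statistic and p-values) was not used.

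Counts were filtered with filterByExpr (minimum count 10, minimum total 15), scaled by TMM (factors 0.9942 to 1.008) and tested with the quasi-likelihood test of edgeR 4.0.16 in R 4.3.3, ErbB4 KO against WT, with Benjamini-Hochberg adjustment over all 14696 genes and a threshold of 0.05. DESeq2 1.42.0 was an alternative. Log2 CPM used a prior count of 2. The exact permutation test took the difference of mean log2 CPM of 1 gene. Counting error is Poisson error, and reads without molecular identifiers are not independent molecules. Positions and exon lengths are those that GENCODE gives on mm9, where no member shares exon bases with another gene. Figures were drawn with matplotlib 3.10.9. The scripts were tested on simulated counts.

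Named were all 10 members; the 2 highest and 2 lowest log2 fold changes of each list among genes of at least 1 CPM, and any past the threshold; the 10 and 5 genes most like the endothelial and pericyte members; and Erbb4. Others (Xist, genes whose libraries did not overlap or whose unadjusted p was under 0.05, untested markers, and the genes near Rgs5) were chosen after their values were seen, and 1 gene that the rule names is not reported here. The members and lists were chosen with earlier results of these data known. Alternatives were DESeq2, relative log expression, other filters, a replicate block, the level of Xist as a term, a threshold of 0.1 and each library left out. The 5 libraries without Xist and removal of the trend with exon length were added after seeing the data.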

Additional observations from a re-analysis of the deposited data

Results flagged for a closer look

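None of the 10 members had a library that stood far from the other 3 of its genotype by Dixon's test. In it the gap to the nearest library is divided by the range of the 4 and compared with the 95% critical value. For single genes the gap and the range were taken in log2 CPM, not in CPM. Of 112 groups tested, members, their sums and named genes in each genotype, 8 exceeded it, and chance marks about 1 group in 20. Of vascular genes these were She, low in WT replicate 3 (0.93), Anpep, high in WT replicate 2 (0.918), Jam2, low in ErbB4 KO replicate 2 (0.892), Lrp6, low in WT replicate 1 (0.887), Slc22a8, high in WT replicate 2 (0.872), and Slco1c1, low in ErbB4 KO replicate 4 (0.833). Of other genes they were Dcn, high in ErbB4 KO replicate 1 (0.905), and Dcx, low in ErbB4 KO replicate 1 (0.884).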

How the results depend on the processing

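The count of members with an adjusted p under 0.05 was 0 under every alternative run, and the smallest adjusted p of any member in any of them was 0.528. The members' median log2 fold change, -0.0069, lay between -0.027 and 0.021 with each library left out. The difference of the summed endothelial level lay between -1.93 and 0.963 CPM and that of the pericyte level between -7.59 and -1.5 CPM with each library left out. The count over all genes, 4, was 23 by DESeq2, 1 with relative log expression, 1 with Xist as a covariate, 1 in the 5 libraries without Xist, and 1 to 13 with each library left out (13 without WT replicate 4, 2 without WT replicate 2 or ErbB4 KO replicate 4, 1 without WT replicate 3 or ErbB4 KO replicate 1, 2 or 3). The cause was not tested. Kdr, Flt1, Tie1, Esam, Pdgfrb and Rgs5 kept their sign under every alternative.

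Signs turned as follows. With Xist as a covariate, the log2 fold change was 0.045 for Cldn5, 0.19 for Jam2, -0.093 for Fzd4, -0.18 for Tbx18, 0.073 for Dcn, 0.042 for C1qc and -0.018 for Csf1r. In the libraries without Xist it was -0.0084 for Cdh5, -0.02 for Tek, 0.08 for Cldn5, 0.17 for Jam2, -0.14 for Fzd4, -0.021 for Lrp6, -0.24 for Tbx18, 0.059 for Dcn, 0.061 for C1qc and -0.015 for Csf1r. With the length trend removed it was -0.0018 for Tek, 0.031 for Cldn5, -0.053 for Col3a1 and 0.016 for Neurod6. With each library left out it ran from -0.047 to 0.0034 for Pecam1, -0.032 to 0.096 for Cdh5, -0.10 to 0.075 for Tek, -0.12 to 0.073 for Cldn5, -0.11 to 0.12 for Fzd4, -0.029 to 0.12 for Lrp6, -0.14 to 0.066 for Dcn, -0.19 to 0.14 for Col3a1, -0.011 to 0.31 for Slc4a1, -0.079 to 2.84 for Clic6, -0.23 to 3.25 for Folr1, -0.29 to 5.23 for Ttr, -0.089 to 0.029 for Neurod6 and -0.15 to 0.085 for Mki67. Hba-x passed the adjusted threshold without ErbB4 KO replicate 4 (-1.71). The causes were not tested.

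The replicate block, with the replicate number as a term, called 1 gene and no member, gave a member median of -0.00049 and turned Col3a1 to -0.017. Under it the log2 fold change of Rgs5 was -0.29 with an SE of 0.066 in place of 0.15, and its edgeR p was 0.00172 in place of 0.0799 (adjusted p = 0.579), with the ErbB4 KO library lower in 4 of 4 same-numbered pairs. Same-numbered libraries of the genotypes correlated at 0.249, 0.41, 0.0735 and 0.04, so not all were over 0.1, and the numbers were not taken to pair the libraries. Of the WT libraries, replicates 1 and 2 matched their own number best and replicates 3 and 4 did not, a hint from the data and not from the labels.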
